A study of Homo sapiens with 6 samples.

Results

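Small nucleolar RNA (snoRNA) host genes are non-coding genes that carry small RNAs within their own span. The members described here were the genes listed under a symbol of the form SNHG followed by a number, together with GAS5, ZFAS1, EPB41L4A-AS1, DANCR and MEG8. There were 33 of them among 60666 genes in each library, all annotated as long non-coding RNA (lncRNA) genes, and 28 had enough counts to be tested. RNA was measured in HCT116 cells, a human colorectal carcinoma line labelled wild type, and in DNMT3B KO cells, a derivative of that line in which the DNA methyltransferase gene DNMT3B was disrupted. Each line gave 3 libraries, neither was treated, and both were grown in McCoy's 5A medium with foetal calf serum and antibiotics. The sources describe DNMT3B KO as a single derived line and leave unstated whether each library had its own culture, and p-values here reflect no more than the variation among these 6 libraries. The question addressed here was how the levels of the host genes differed between the 2 lines.

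A snoRNA host gene is transcribed and spliced like a messenger RNA, and its small RNAs are trimmed out of the removed introns. C/D box snoRNAs guide methylation of ribose in ribosomal RNA, H/ACA box snoRNAs guide conversion of uridine to pseudouridine, and small Cajal body RNAs do the same for the RNAs of the spliceosome. The spliced host transcript is often short-lived, because many are read by ribosomes and destroyed by nonsense-mediated decay. Many host genes start with a run of pyrimidines, the 5′ terminal oligopyrimidine (TOP) motif that they share with ribosomal protein genes.

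In the RefSeq annotation (GRCh38.p14), 189 named small RNAs lay within the spans of the members, of which 162 were C/D box, 23 H/ACA box and 4 Cajal body RNAs. The table used for this count gives no strand. By class, 13 members held C/D box RNAs only, 11 held H/ACA box RNAs only, 4 held a Cajal body RNA and 3, GAS5, SNHG12 and SNHG25, held both box classes. No small RNA was named within SNHG27 and SNHG28. The numbers were uneven. SNHG14, from the imprinted Prader-Willi region, held 83 and MEG8, from the imprinted DLK1 region, held 41, while GAS5 held 11 and SNHG1 held 8.

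The 5 members that differed between the lines by the test given further on were SNHG3, SNHG4, SNHG16, SNHG19 and SNHG20, and small RNAs of SNHG3, SNHG16, SNHG19 and SNHG20 are shown because they are what each transcript carries. The sequences were read from hg38 at the GENCODE coordinates, 5′ to 3′ on the strand of the host gene. Capitals mark TGATGA (the core of the C box) in the first 20 bases and CTGA (the D box) in the last 20 bases of C/D box RNAs, and ACA standing 3 bases before the end of H/ACA box and Cajal body RNAs. SNHG3 holds SNORA73A (chr1:28507366-28507571, plus strand) and its near copy SNORA73B (chr1:28508559-28508762, plus strand), which are required for processing of the small subunit ribosomal RNA. SNHG4 holds SNORA74A and SNORA74D, which are named only. The listed sequence of SNORA74D has no ACA at the marked place. SNHG16 holds SNORD1A (chr17:76561634-76561705, plus strand), SNORD1B (chr17:76561109-76561192, plus strand) and SNORD1C (chr17:76558791-76558868, plus strand). SNHG19 holds SNORD60 (chr16:2155023-2155105, minus strand), and SNHG20 holds SCARNA16 (chr17:77089307-77089493, plus strand).
SNORA73A: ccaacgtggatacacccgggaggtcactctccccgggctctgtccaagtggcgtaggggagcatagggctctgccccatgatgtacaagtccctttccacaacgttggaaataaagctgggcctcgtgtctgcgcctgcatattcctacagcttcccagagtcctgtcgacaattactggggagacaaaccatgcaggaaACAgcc
SNORA73B: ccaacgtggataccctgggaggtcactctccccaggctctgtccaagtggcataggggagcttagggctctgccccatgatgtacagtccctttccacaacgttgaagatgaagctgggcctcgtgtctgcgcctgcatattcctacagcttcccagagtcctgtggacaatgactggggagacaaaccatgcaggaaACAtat
SNORD1A: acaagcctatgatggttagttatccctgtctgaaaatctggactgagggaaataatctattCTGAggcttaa
SNORD1B: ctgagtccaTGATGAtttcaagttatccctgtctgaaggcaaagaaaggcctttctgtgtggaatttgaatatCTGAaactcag
SNORD1C: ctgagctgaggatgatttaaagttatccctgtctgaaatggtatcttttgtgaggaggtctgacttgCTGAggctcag
SNORD60: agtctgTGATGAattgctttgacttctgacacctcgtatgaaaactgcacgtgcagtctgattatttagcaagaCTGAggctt
SCARNA16: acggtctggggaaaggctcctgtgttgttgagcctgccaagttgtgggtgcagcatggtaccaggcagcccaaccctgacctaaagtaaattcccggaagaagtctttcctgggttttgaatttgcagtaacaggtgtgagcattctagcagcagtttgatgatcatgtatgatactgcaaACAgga
Among 149 C/D box RNAs of the members whose sequence was read at GENCODE coordinates, TGATGA was present in 121, CTGA in 144 and both in 118. Of 26 H/ACA box RNAs, 15 had ACA at exactly that distance from the listed end, 0 had TGATGA and 3 had CTGA. Small RNAs of GAS5 and SNHG6 were not among the sequences read. The letters are a description of the listed sequences, and their absence, as of TGATGA in SNORD1A, says only that they are not at that place.

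Estimated counts summed to between 55436267 and 68274783 per library, so that 3 counts, the limit that a count of 0 allows, corresponded to 0.0416 to 0.0595 CPM (counts scaled to the size of the library). Such limits cover counting error only. DNMT3B was at 38.5, 30.1 and 39.5 CPM in HCT116 and at 2.54, 2.87 and 2.83 CPM in DNMT3B KO, which is the check of the knockout label. Pairs of HCT116 libraries correlated across genes at 0.975 to 0.987 on the log scale, and pairs of DNMT3B KO libraries at 0.990 to 0.991, where genes are not independent replicates. Several host genes below, among them GAS5, ZFAS1 and DANCR, were furthest apart between HCT116 replicates 2 and 3.

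Levels of the host genes spanned 3 orders of magnitude, and most did not differ between the lines by more than the spread between libraries. The levels below are CPM after normalisation of library sizes, and differences are log2 fold changes of DNMT3B KO over HCT116 from the quasi-likelihood F test of edgeR, with p-values adjusted over the 16959 genes tested. Of the 28 tested members, 2 were higher in DNMT3B KO (SNHG19 and SNHG20), 3 were lower (SNHG3, SNHG4 and SNHG16) and 23 did not pass an adjusted p of 0.05. The share that passed was 17.9%, beside 28.1% of all tested genes and 22.7% of 2143 tested lncRNA genes. In all tested genes, 12.9% were higher and 15.1% were lower. The median difference over the tested members was 0.04, with a range of -0.81 to 0.82, and the median over all genes was -0.00. The median size of the difference was 0.28 in the members and 0.31 in all genes. Tested lncRNA genes had a median difference of 0.17 and a median size of 0.55. Of the 28 members, 24 differed by less than 1.5-fold, beside 11958 of 16959 tested genes and 1126 of 2143 tested lncRNA genes. The alternative fits named below called other shares of all genes, namely 29.0% with upper-quartile normalisation, 26.7% in DESeq2, 16.6% when genes with few counts were kept, 29.6% with a mean of at least 1 CPM and 24.8% when replicate number was a block. Without HCT116 replicates 1, 2 and 3 the shares were 17.8%, 34.1% and 32.8%, and without DNMT3B KO replicates 1, 2 and 3 they were 18.1%, 17.6% and 17.8%.

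**Figure D1:**
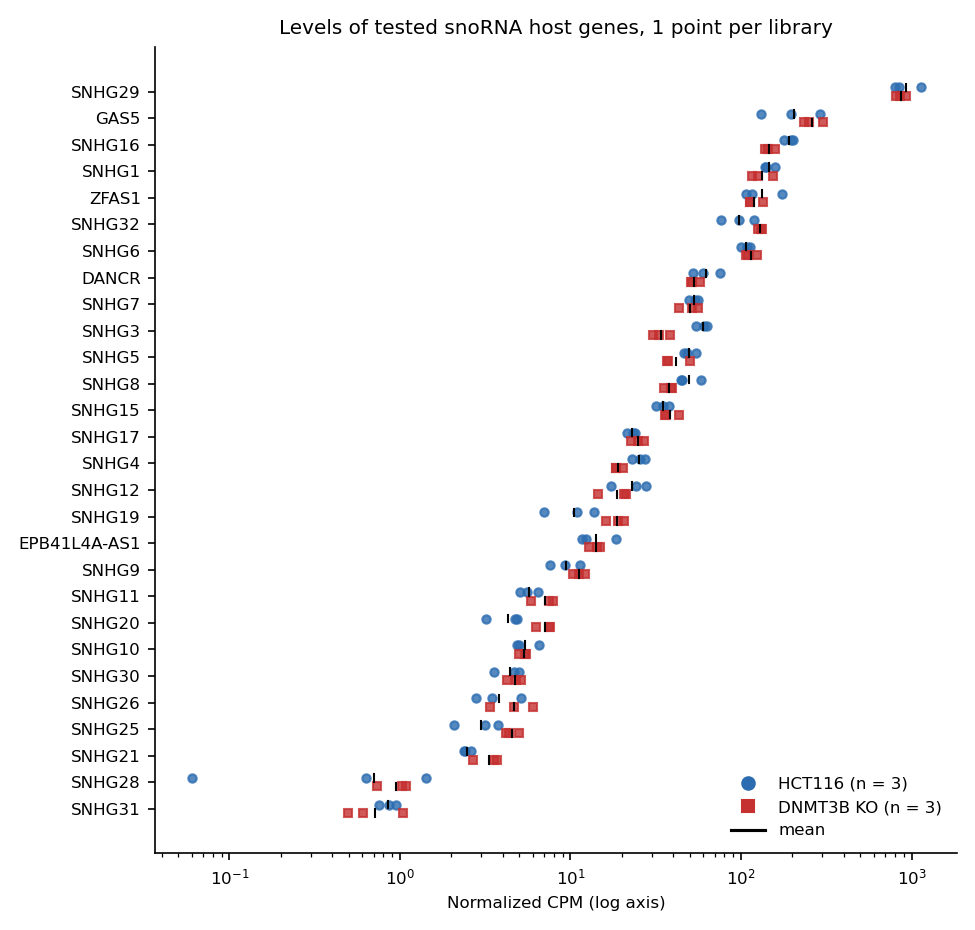
Levels of the 28 tested snoRNA host genes, with normalised CPM on a log axis and 1 row per gene. Circles are the 3 HCT116 libraries, squares the 3 DNMT3B KO libraries and short vertical bars the mean of each line; SNHG29 lay highest at 804 to 1130 CPM, and the DNMT3B KO libraries of SNHG3 (30.6 to 38.4 CPM) lay below its HCT116 libraries (54.6 to 63.4 CPM).

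The largest decrease was that of SNHG3 (ENSG00000242125, chr1:28505980-28510892, plus strand), the host of both SNORA73 copies shown above. Its level was 63.4, 60.5 and 54.6 CPM in HCT116 replicates 1, 2 and 3, and 32.9, 30.6 and 38.4 CPM in DNMT3B KO replicates 1, 2 and 3. All DNMT3B KO libraries lay below all HCT116 libraries, with a gap wider than the range of either line. The means were 59.5 ± 4.5 and 34.0 ± 4.03 CPM (SD, n = 3), and the log2 fold change was -0.81 (standard error (SE) 0.11, edgeR adjusted p = 0.00128), or 0.571 of the HCT116 level with a 95% interval of 0.478 to 0.682. SNHG3 passed the test in all 12 alternative fits, with an adjusted p of at most 0.0109. GENCODE places 242 bases of SNHG3 exon on exons of RCC1, which encodes a regulator of chromosome condensation and is transcribed from the same strand. RCC1 was at 207, 171 and 264 CPM in HCT116 and 188, 215 and 183 CPM in DNMT3B KO, and its libraries overlapped (log2 fold change -0.13, SE 0.16, adjusted p = 0.581). How the shared bases were divided between the genes was not tested.

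SNHG4 (ENSG00000281398, chr5:139274102-139284899, plus strand), which holds SNORA74A and SNORA74D, was at 25.6, 22.9 and 27.3 CPM in HCT116 and at 18.4, 20.3 and 18.6 CPM in DNMT3B KO. The lines did not overlap. The log2 fold change was -0.40 (SE 0.11, edgeR adjusted p = 0.0259). This call was lost without HCT116 replicate 1 (adjusted p = 0.0949) and without DNMT3B KO replicates 1, 2 and 3 (0.102, 0.0591 and 0.103). It was also lost with upper-quartile normalisation (0.0503) and in the fit blocked on replicate number (0.0593), so that SNHG4 passed in 6 of 12 alternative fits, while the direction was the same in every fit. SNHG4 shares 626 exonic bases on its strand with MATR3, which encodes the nuclear matrix protein matrin and is listed under more than 1 identifier. The MATR3 entry that overlaps SNHG4 was at 122, 119 and 116 CPM in HCT116 and 103.3, 98.6 and 93.0 CPM in DNMT3B KO. Its libraries did not overlap either (log2 fold change -0.27, SE 0.08, adjusted p = 0.0371), and its call was lost without HCT116 replicate 1 (adjusted p = 0.138) and without DNMT3B KO replicates 1, 2 and 3 (0.0788, 0.119 and 0.153).

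SNHG16 (ENSG00000163597, chr17:76557727-76670985, plus strand) is the host of the 3 SNORD1 RNAs and one of the most abundant members. It was at 178, 201 and 195 CPM in HCT116 and at 144, 138 and 159 CPM in DNMT3B KO. The DNMT3B KO libraries all lay below the HCT116 libraries. The means were 191 ± 11.96 and 147 ± 10.8 CPM (SD, n = 3), and the log2 fold change was -0.38 (SE 0.09, edgeR adjusted p = 0.0185) and 0.767 of the HCT116 level. The call was kept in 10 of 12 alternative fits and lost without DNMT3B KO replicate 1 or replicate 2 (adjusted p = 0.0831 and 0.0893).

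The largest increase was that of SNHG19 (ENSG00000260260, chr16:2154792-2155405, minus strand), a short gene that holds SNORD60. Its level was 10.9, 13.7 and 7.04 CPM in HCT116 and 19.04, 20.7 and 16.2 CPM in DNMT3B KO. Every DNMT3B KO library lay above every HCT116 library, although the HCT116 libraries themselves spanned 1.94-fold. The means were 10.5 ± 3.33 and 18.6 ± 2.29 CPM (SD, n = 3), and the log2 fold change was 0.82 (SE 0.23, edgeR adjusted p = 0.0322), or 1.77-fold with a 95% interval of 1.22 to 2.56. The call was lost without HCT116 replicate 1 (adjusted p = 0.0906) and without DNMT3B KO replicates 1, 2 and 3 (0.0953, 0.117 and 0.0561). The fold was smallest without HCT116 replicate 3, the lowest library (log2 fold change 0.61, adjusted p = 0.0181).

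SNHG20 (ENSG00000234912, chr17:77086716-77099902, plus strand), which holds SCARNA16, was at 4.76, 3.20 and 4.88 CPM in HCT116 and at 6.31, 7.50 and 7.59 CPM in DNMT3B KO. The lines did not overlap. The log2 fold change was 0.74 (SE 0.21, edgeR adjusted p = 0.0308), or 1.67-fold with a 95% interval of 1.199 to 2.32. The call was lost without HCT116 replicate 1 (adjusted p = 0.0680), without DNMT3B KO replicates 1, 2 and 3 (0.0611, 0.108 and 0.113) and, narrowly, with the replicate number in the model as a block (0.0516). Its fold was smallest without HCT116 replicate 2, the lowest library (log2 fold change 0.55, adjusted p = 0.0304). In that library SNHG20 had 204.5 estimated counts. SCARNA16, which lies wholly within its exonic bases, had 27.3 there and 0 in HCT116 replicates 1 and 3. SNHG20 shares 460 exonic bases on its strand with SEC14L1, which encodes a lipid-binding protein. SEC14L1 was more abundant, at 74.3, 80.8 and 71.7 CPM in HCT116 and 122, 101 and 123 CPM in DNMT3B KO. It was higher too (log2 fold change 0.61, SE 0.10, adjusted p = 0.00396), and how reads in the shared bases were divided was not tested.

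**Figure D2:**
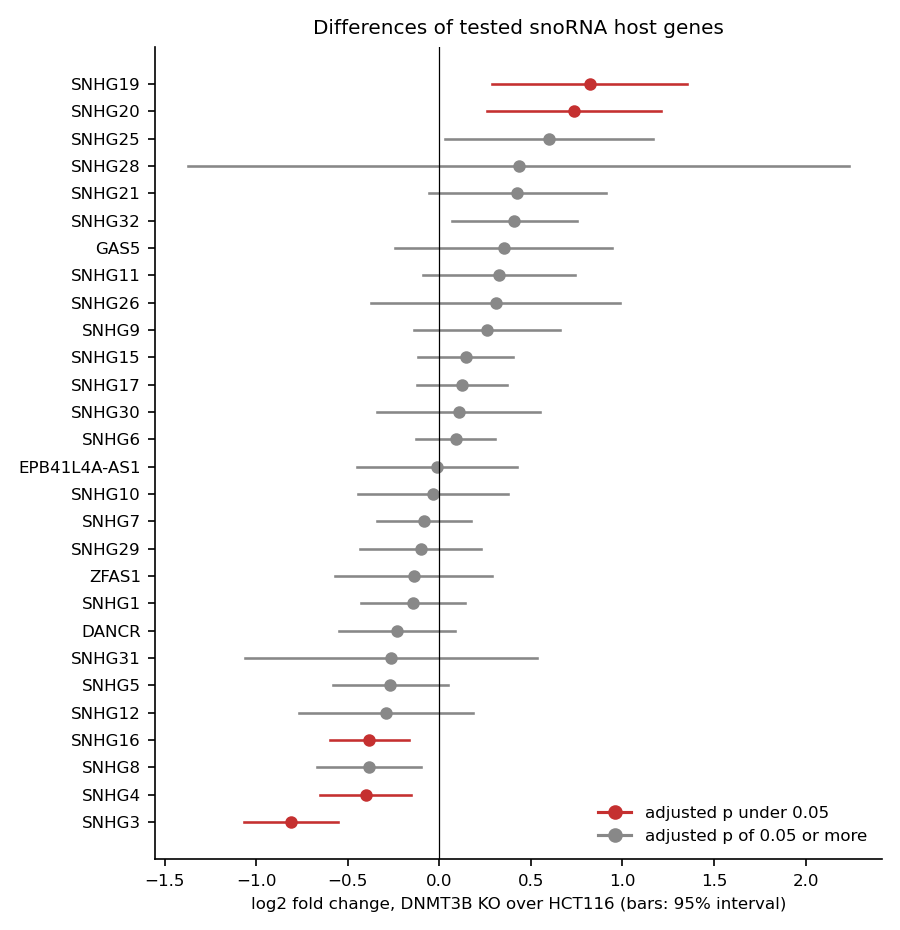
Log2 fold change of each of the 28 tested host genes, DNMT3B KO over HCT116, with bars giving the 95% interval. The 5 genes in red passed an adjusted p of 0.05, and the grey ones did not; the intervals of SNHG25, SNHG32 and SNHG8 lay to one side of 0 without passing the adjustment.

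Libraries of one line lay wholly above those of the other for 9 of the 28 tested members (32.1%), beside 45.9% of all tested genes. In 5 of them the DNMT3B KO libraries were above (23.3% of all tested genes) and in 4 they were below (22.6%). Besides the members that passed the test, these were SNHG32, SNHG25, SNHG21 and SNHG8. The last 3 are not among the most abundant members and were singled out after their values were seen. SNHG8, which holds the H/ACA box RNA SNORA24, was at 45.1, 58.6 and 44.7 CPM in HCT116 and 35.3, 38.8 and 39.5 CPM in DNMT3B KO (log2 fold change -0.38, SE 0.12, adjusted p = 0.0514). SNHG25 was at 2.08, 3.14 and 3.77 CPM in HCT116 and 4.22, 5.00 and 4.37 CPM in DNMT3B KO (0.60, SE 0.25, adjusted p = 0.108). SNHG21, which holds the Cajal body RNA SCARNA15, was at 2.60, 2.39 and 2.40 CPM in HCT116 and 3.58, 2.67 and 3.69 CPM in DNMT3B KO (0.43, SE 0.21, adjusted p = 0.169). None of the 3 passed, although SNHG8 did so in 4 of 12 alternative fits.

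SNHG29 was by far the most abundant host gene, and the other genes of the highest levels mostly overlapped between the lines. SNHG29 (chr17:16438767-16480249, plus strand) holds SNORD49A, SNORD49B and SNORD65 and was at 848, 1130 and 804 CPM in HCT116 and 814, 924 and 855 CPM in DNMT3B KO. The libraries overlapped, and replicate 2 was the highest of each line (log2 fold change -0.10, SE 0.14, adjusted p = 0.646). It made up 39.2% to 43.2% of the summed CPM of the members in each library. That sum was 2138, 2617 and 2003 CPM in HCT116 and 2079, 2321 and 2110 CPM in DNMT3B KO, which overlapped as well.

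GAS5 (chr1:173858559-173868882, minus strand), named for its accumulation in growth-arrested cells, varied most among the 10 most abundant members in HCT116. It was at 196, 289 and 132 CPM in HCT116, a 2.20-fold range, and at 251, 303 and 233 CPM in DNMT3B KO. The lines overlapped through HCT116 replicate 2, and the log2 fold change of 0.35 (SE 0.26, 95% interval -0.24 to 0.94, adjusted p = 0.352) did not pass. Without HCT116 replicate 2 it was 0.67 and passed (adjusted p = 0.0171), and without HCT116 replicate 3 it was 0.12 (adjusted p = 0.640). The interval allowed a small decrease as well as an increase.

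SNHG32 (chr6:31834608-31839766, plus strand), which lies in the class III region of the major histocompatibility complex and holds SNORD48 and SNORD52, was at 97.9, 118 and 76.8 CPM in HCT116. In DNMT3B KO it was at 131, 133 and 126 CPM, above every HCT116 library. The log2 fold change of 0.41 (SE 0.15, adjusted p = 0.0739) did not pass. It passed without HCT116 replicate 2 (0.56, adjusted p = 0.00446), and also in DESeq2 and when genes with few counts were kept (adjusted p = 0.0438 and 0.0429).

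ZFAS1 (chr20:49278178-49299600, plus strand), the antisense partner of ZNFX1 and host of the SNORD12 RNAs, was at 115, 175 and 107 CPM in HCT116 and 113, 134 and 112 CPM in DNMT3B KO. Its libraries overlapped, with HCT116 replicate 2 far above the rest (log2 fold change -0.14, SE 0.18, adjusted p = 0.617). SNHG1 (chr11:62851978-62855953, minus strand), which holds 8 C/D box RNAs, was at 158, 141 and 138 CPM in HCT116 and 125, 155 and 116 CPM in DNMT3B KO. Here too the libraries overlapped (-0.14, SE 0.12, adjusted p = 0.431). SNHG6, which holds SNORD87, varied little, at 101, 112 and 108 CPM in HCT116 and 108, 109 and 125 CPM in DNMT3B KO (0.09, SE 0.09, 95% interval -0.13 to 0.30, adjusted p = 0.520).

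DANCR (chr4:52712325-52723623, plus strand), an RNA known for holding back differentiation of progenitor cells, holds SNORA26. It was at 59.8, 52.5 and 75.7 CPM in HCT116 and at 51.5, 51.1 and 57.3 CPM in DNMT3B KO. The libraries overlapped (log2 fold change -0.23, SE 0.14, adjusted p = 0.252), and the test was passed without HCT116 replicate 2 (adjusted p = 0.0430). SNHG7 (chr9:136721366-136728184, minus strand), which holds SNORA17A and SNORA17B, was at 53.7, 49.8 and 55.9 CPM in HCT116 and 51.4, 55.7 and 43.3 CPM in DNMT3B KO. These values overlapped almost entirely (-0.08, SE 0.11, adjusted p = 0.619).

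Of the other tested members, SNHG5, SNHG12, SNHG31, SNHG10 and EPB41L4A-AS1 had differences below 0, from -0.29 to -0.01. SNHG5 passed in 1 of 12 alternative fits, without DNMT3B KO replicate 2 (adjusted p = 0.0472), and SNHG25 in 1, without HCT116 replicate 3 (adjusted p = 0.0274). SNHG9, SNHG11, SNHG15, SNHG17, SNHG26, SNHG28 and SNHG30 had differences from 0.11 to 0.43. SNHG28 was the least certain of all, since it was at 0.0602, 1.41 and 0.635 CPM in HCT116 and 1.03, 1.09 and 0.731 CPM in DNMT3B KO, and its 95% interval ran from -1.37 to 2.24. On their own strand, SNHG5, SNHG21, SNHG28, SNHG32 and DANCR also share exonic bases with other genes. SNHG28, with 5656 exonic bases, shares 5133 with a protein-coding gene and 274 with VSIG8. SNHG5 shares 943 with a protein-coding gene and 715 with a pseudogene. SNHG21 shares 768 bases, SNHG32 418 and DANCR 270. How the reads of these members were divided was not tested. Of the members too low to be tested, SNHG14 and MEG8 share exonic bases on their own strand as well.

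The remaining 5 members, SNHG14, SNHG18, SNHG22, SNHG27 and MEG8, were not tested because their counts were too low. SNHG22 reached at most 0.188 CPM and SNHG27 at most 0.117 CPM. SNHG14 was at 0 in 3 libraries and at most 0.139 CPM, MEG8 had 2.3 estimated counts in HCT116 replicate 3, 0.3 in DNMT3B KO replicate 3 and 0 elsewhere, and SNHG18 was at 0 in all 6. The pair of imprinted hosts, SNHG14 and MEG8, thus hold most of the annotated small RNAs of the members but were barely detected in either line.

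Per kilobase of merged exons, SNHG29 was again first in every library, and SNHG32 was above GAS5 in 6 of 6 libraries. GAS5 and SNHG6 changed places between libraries, with GAS5 higher in 3 of 6. SNHG6 was above SNHG1 and SNHG1 above SNHG16 in 6 of 6. SNHG16 was above SNHG19 in 4 of 6 libraries, so these neighbours did not keep their order. Lengths of merged exons need not be those of the isoforms present.

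The members that passed were spread over the classes of small RNA held. Of 10 tested members with C/D box RNAs only, 1 was higher and 1 was lower, with a median difference of -0.01. Of 11 with H/ACA box RNAs only, 0 were higher and 2 were lower, with a median of -0.08, and the counts in DESeq2 and at an unadjusted p under 0.05 in edgeR were 0 and 3. Of 3 with a Cajal body RNA, 1 was higher and 0 were lower, as in DESeq2 and at an unadjusted p under 0.05. Of 3 with both box classes 0 passed in edgeR or DESeq2, and 1 was higher at an unadjusted p under 0.05. The shares called were 20% with C/D box RNAs only, 18.2% with H/ACA box RNAs only and 33.3% with a Cajal body RNA. Beside them stand 28.1% of all tested genes and 22.7% of tested lncRNA genes. No difference between classes was tested.

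The small RNAs themselves were almost absent from these libraries, which were made from polyadenylated RNA. Of 191 small RNA genes that GENCODE places within the members and that are listed in the files, 184 were at 0 in all 6 libraries and 0 reached a mean of 1 CPM. GAS5 had 0 such genes, so the small RNAs that RefSeq places within it are outside this count. SNORA73B had the most, with 13.0, 30.7 and 18.7 estimated counts in HCT116 and 21.9, 15.97 and 17.1 in DNMT3B KO. These values overlapped between the lines. SNORA71B, from SNHG17, was counted in all 6 libraries, with 3.99, 3.96 and 7.86 estimated counts in HCT116 and 7.99, 2.0 and 10.0 in DNMT3B KO. SCARNA16 was counted in 2 libraries only, with 27.3 estimated counts in HCT116 replicate 2 and 8.44 in DNMT3B KO replicate 2. GENCODE places SCARNA16 wholly within exonic bases of SNHG20, and how reads there were divided was not tested. The levels of mature snoRNAs were thus not measured by these data.

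The start of a host gene is of interest because the TOP motif sits there. The first bases of the members that passed the test, and of SNHG32, are shown from 10 bases before to 20 bases from the RefSeq start (GRCh38.p14), 5′ to 3′ on the strand of the gene. Capitals mark a run that begins with C within 10 bases of the start and goes on with at least 4 more C or T. The windows lie at chr1:28505933-28505962 (SNHG3), chr5:139274091-139274120 (SNHG4), chr17:76557754-76557783 (SNHG16), chr16:2155339-2155368 (SNHG19), chr17:77088633-77088662 (SNHG20) and chr6:31834906-31834935 (SNHG32).
SNHG3: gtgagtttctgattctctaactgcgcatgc
SNHG4: ctcccggctgCCCTTTCCCCTCCggcctct
SNHG16: gggcggtctcgcgttCTTTTCgaggtcggc
SNHG19: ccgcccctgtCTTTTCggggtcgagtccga
SNHG20: ttccggccggaagttgctgacggagctact
SNHG32: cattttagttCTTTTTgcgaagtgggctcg
In SNHG4, SNHG19 and SNHG32 the run begins at the RefSeq start, and in SNHG16 it begins 5 bases further on. Annotations differ on the start, since GENCODE begins SNHG32 at 31834608 and RefSeq at 31834916. Such a run was found in 16 of the 28 members with a listed start (57.1%). Its place varied, from 8 bases before the listed start in SNHG14 to 10 bases after it in SNHG26. A run counted here therefore need not be a TOP motif. Absence of a run depends on the listed start as well. For GAS5, counted as without it, the RefSeq start (173869045) lies outside the GENCODE span, which ends at 173868882. It was found in 58 of 63 ribosomal protein genes (92.1%), in 36.4% of 27305 genes with a listed start and in 31.4% of 35116 listed promoters. SNHG6, SNHG9, SNHG15, SNHG25 and MEG8 have no entry in the table of starts. Of 14 tested members with the run, 1 was higher and 2 were lower, with a median difference of -0.19, and of 10 without it, 1 was higher and 1 was lower, with a median of 0.05. The shares called were 21.4% with the run and 20% without it, beside 28.1% of all tested genes. Called genes and uncalled ones thus occur on both sides, and the difference between the sides was not tested.

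Some members start back to back with another gene on the opposite strand. Of 12 such neighbours within 1000 bases, 8 were tested, of which 1 was higher and 3 were lower (50.0% called, beside 28.1% of all tested genes). Leaving out 1 library gave 0 to 2 higher and 2 to 4 lower calls. TRAF7, which encodes a ubiquitin ligase and starts 293 bases from SNHG19, was at 235, 231 and 229 CPM in HCT116 and 155, 150 and 151 CPM in DNMT3B KO. It was lower (log2 fold change -0.60, SE 0.08, adjusted p = 0.000845), while SNHG19 was higher. ZNFX1, which starts 248 bases inside ZFAS1 on the opposite strand, was at 88.5, 80.9 and 91.7 CPM in HCT116 and 49.5, 44.9 and 47.2 CPM in DNMT3B KO. It was lower as well (-0.88, SE 0.09, adjusted p = 0.000246), and ZFAS1 did not pass. RPS2, a ribosomal protein gene that starts 54 bases from SNHG9, was lower (-0.42, SE 0.10, adjusted p = 0.0169), although not without DNMT3B KO replicate 1, 2 or 3 (adjusted p = 0.0852, 0.0732 and 0.0508). ACAA2, a mitochondrial thiolase gene beside SNHG22, was higher (0.60, SE 0.14, adjusted p = 0.0159), although not without HCT116 replicate 1 or DNMT3B KO replicates 2 and 3 (adjusted p = 0.0635, 0.0713 and 0.0589). SLC3A2 beside SNHG1 (-0.28), ZBTB37 beside GAS5 (-0.37) and BARD1 beside SNHG31 (0.49) did not pass, nor did a lncRNA beside SNHG28. Differences between a member and its neighbour were not tested.

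**Figure D3:**
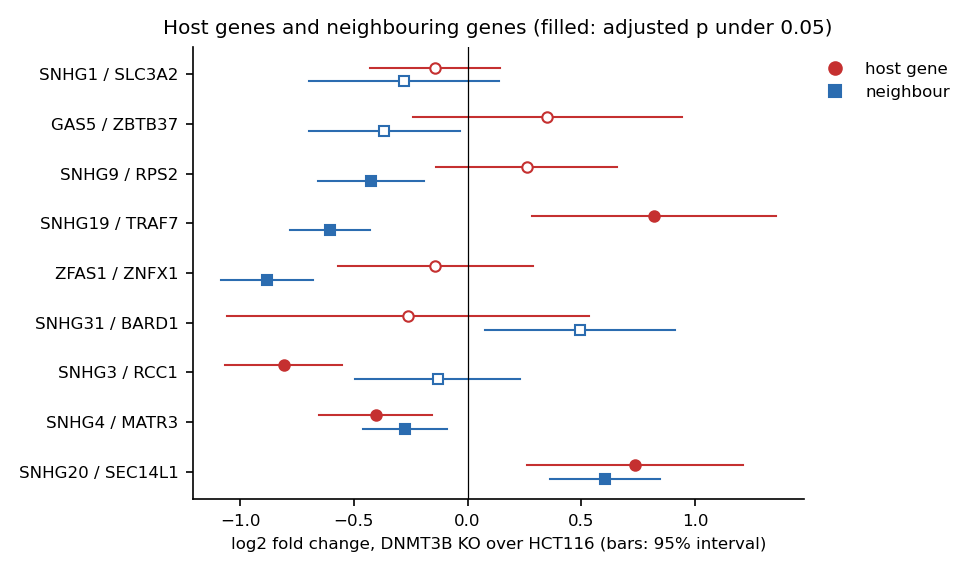
Log2 fold change, DNMT3B KO over HCT116, with 95% intervals, of host genes (circles) and of genes that start beside them on the opposite strand or share exonic bases on the same strand (squares). Filled symbols passed an adjusted p of 0.05; SNHG19 at 0.82 and TRAF7 at -0.60 lay on opposite sides of 0, and SNHG20 and SEC14L1 on the same side.

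Spread between libraries was larger in HCT116 at the median. The coefficient of variation had a median over the 28 members of 17.0% in HCT116 and 10.2% in DNMT3B KO. Over all tested genes the medians were 15.996% and 8.51%. The coefficient was larger in HCT116 for 17 of 28 members, beside 12193 of 16959 tested genes. Not all members moved together. On the log2(CPM + 0.5) scale, GAS5 was 0.56 above the HCT116 mean in replicate 2 and 0.57 below it in replicate 3 (a deviation of -0.57). ZFAS1, SNHG29 and SNHG32 deviated in the same way by 0.43, 0.30 and 0.30 in replicate 2, while DANCR went the other way, with -0.24 in replicate 2 and 0.29 in replicate 3. The median deviation of ribosomal protein genes was -0.12, 0.18 and -0.05 in HCT116 replicates 1, 2 and 3. In DNMT3B KO, replicate 2 was the highest library for 19 of 28 members. The part of these library differences in the results was not tested beyond leaving out each library.

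**Figure D4:**
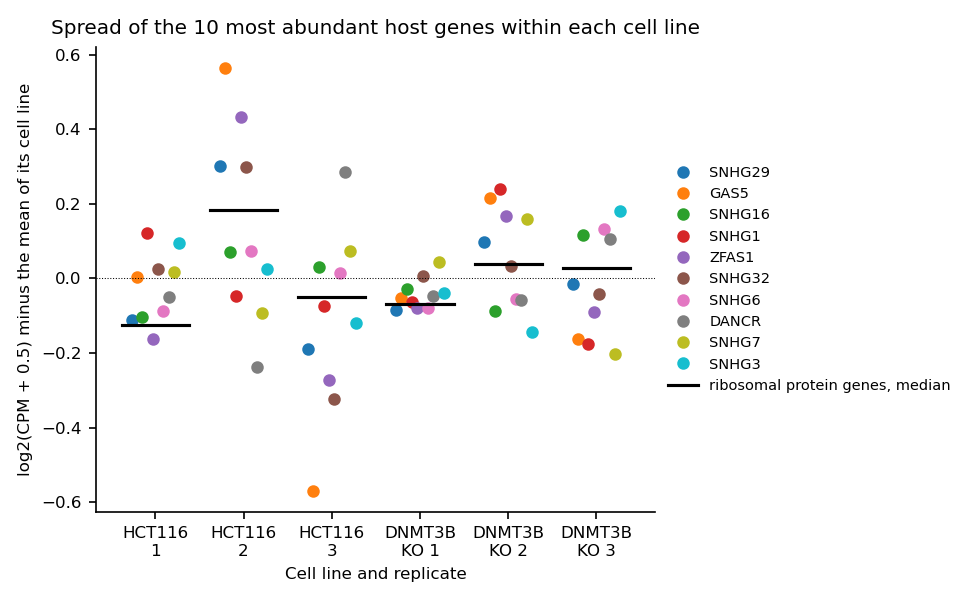
Deviation of the 10 most abundant host genes from the mean of their own cell line, in log2(CPM + 0.5), for each of the 6 libraries. Bars give the median deviation of ribosomal protein genes; GAS5 ranged from -0.57 to 0.56 in HCT116.

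**Figure D5:**
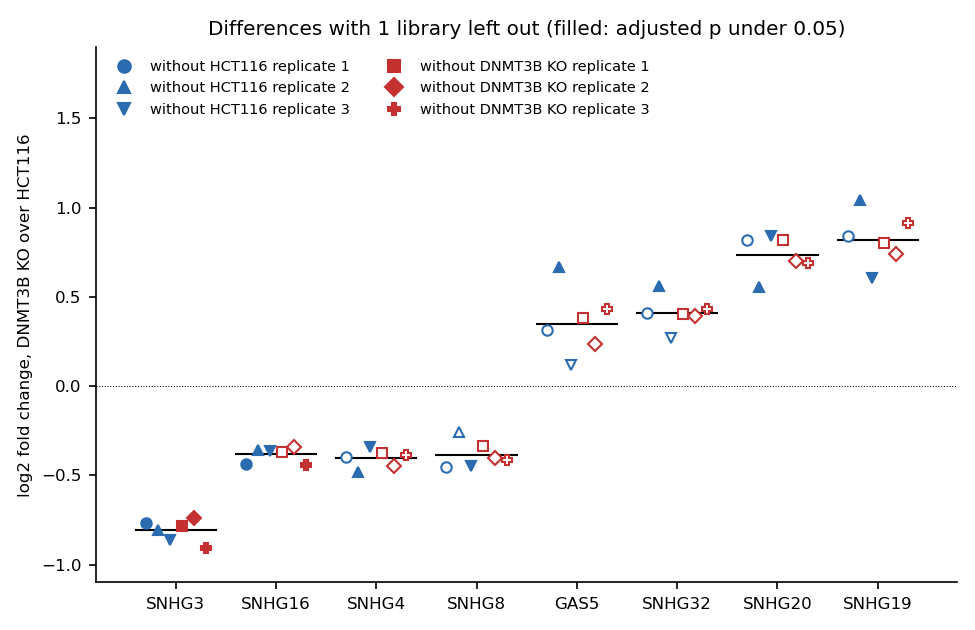
Log2 fold change of 8 host genes when 1 library was left out, with the value from all 6 libraries as a black line. The genes drawn are the called host genes with SNHG8, GAS5 and SNHG32. Filled symbols passed an adjusted p of 0.05, and SNHG3 was filled in all 6 fits. None of these 8 changed direction, whereas some host genes not drawn did, among them SNHG29 and ZFAS1.

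Genes whose products act on snoRNAs or on host transcripts were counted beside the members. Among 21 proteins that bind snoRNAs or assemble their particles, 0 were higher and 2 were lower (9.52% called, beside 28.1% of all tested genes), with a median difference of -0.05. In DESeq2 the counts were 0 and 2, and at an unadjusted p under 0.05 in edgeR they were 1 and 2. NOP10, a core protein of H/ACA particles, was lower (log2 fold change -0.38, SE 0.09, adjusted p = 0.0136), although not without DNMT3B KO replicate 1 or replicate 3 (adjusted p = 0.0719 and 0.0589). NUFIP1, an assembly factor of C/D particles, was lower (-0.54, SE 0.12, adjusted p = 0.0111), although not without DNMT3B KO replicate 3 (adjusted p = 0.0580). Leaving out 1 library gave 0 to 5 lower calls in this list, so its count is uncertain.

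Among 18 proteins of nonsense-mediated decay and the exon junction complex, 1 was higher and 3 were lower (22.2% called, beside 28.1% of all tested genes), with a median of 0.08. Leaving out 1 library gave 0 to 2 higher and 2 to 3 lower calls. SMG9, a partner of the kinase that starts decay, was at 60.6, 64.7 and 62.8 CPM in HCT116 and 38.9, 39.9 and 31.2 CPM in DNMT3B KO (log2 fold change -0.77, SE 0.11, adjusted p = 0.0015). UPF2, which bridges decay factors, was at 67.1, 64.0 and 68.1 CPM in HCT116 and 44.5, 43.3 and 40.4 CPM in DNMT3B KO (-0.64, SE 0.08, adjusted p = 0.000919). Both were lower in every fit. NBAS was lower (-0.43, adjusted p = 0.0174), but it missed the threshold when HCT116 replicate 1 or DNMT3B KO replicate 1 or 2 was left out (adjusted p = 0.0677, 0.0796 and 0.0588). The UPF2 partner UPF3A was higher (0.49, adjusted p = 0.0212), although not without HCT116 replicate 1 or DNMT3B KO replicates 1 and 2 (0.0606, 0.0878 and 0.0663). With upper-quartile normalisation, 5 rather than 1 of these genes were higher.

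Among 20 factors of RNA polymerase I and the nucleolus, 0 were higher and 2 were lower, TAF1D (-0.60, adjusted p = 0.00944) and POLR1D (-0.39, adjusted p = 0.0219), with a median of -0.13. The share called was 10.0%, beside 28.1% of all tested genes, and leaving out 1 library gave 0 to 2 higher and 0 to 5 lower calls, with 5 lower without HCT116 replicate 2. In DESeq2 and at an unadjusted p under 0.05 in edgeR, 0 were higher and 3 were lower. TAF1D did not pass without DNMT3B KO replicate 2 (adjusted p = 0.0510), and POLR1D did not pass without DNMT3B KO replicate 1, 2 or 3 (0.0967, 0.0683 and 0.0641). TAF1D is itself a host of snoRNAs. Genes with a TOP motif that encode translation factors were counted next. Of 15 tested, 0 were higher and 6 were lower (40%, beside 15.1% lower among all tested genes), with a median of -0.25. At an unadjusted p under 0.05 the counts were 0 and 8, and in DESeq2 they were 0 and 6, while leaving out 1 library gave 3 to 6 lower calls. The 4 of smallest adjusted p were EIF3E (-0.73, SE 0.11, adjusted p = 0.00207), EEF1D (-0.43), EIF3F (-0.49) and EEF2 (-0.39), of which EEF2 did not pass without HCT116 replicate 1 and without any single DNMT3B KO library (adjusted p = 0.0553, 0.105, 0.123 and 0.0758). Of 85 tested cytosolic ribosomal protein genes, 0 were higher and 26 were lower (30.6%, beside 15.1% lower among all tested genes), with a median of -0.28. That count was 6, 8 and 7 without DNMT3B KO replicates 1, 2 and 3, 16 without HCT116 replicate 1, 11 with upper-quartile normalisation and 41 in DESeq2. In DESeq2 0 were higher, and at an unadjusted p under 0.05 in edgeR 1 was higher and 47 were lower. The snoRNA host genes had a median of 0.04, and the difference between the lists was not tested.

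Protein-coding host genes, which carry snoRNAs in the introns of messenger RNAs, moved in both directions. Of 189 tested, 23 were higher and 35 were lower, with a median of -0.06, and 30.7% passed beside 28.1% of all genes. The counts ranged from 11 to 31 higher and from 17 to 47 lower when 1 library was left out. GNL3, which encodes the nucleolar GTPase nucleostemin and holds C/D box RNAs, was at 256, 257 and 255 CPM in HCT116 and 110, 108 and 104 CPM in DNMT3B KO (log2 fold change -1.25, SE 0.08, adjusted p = 2.4e-05). ITGB8, an integrin subunit gene, was lower (-2.26, SE 0.15, adjusted p = 3.6e-05). RAMP1, a subunit of peptide hormone receptors, was at 19.9, 22.5 and 18.3 CPM in HCT116 and at most 0.0305 CPM in DNMT3B KO. SKAP1, an adaptor of immune cell signalling, was at 9.79, 12.9 and 8.03 CPM in HCT116 and at most 0.0457 CPM in DNMT3B KO.

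Markers of the line and of other cell types were compared because a bulk library cannot tell fewer cells of a type from less RNA per cell. Of 8 epithelial markers, 7 were tested, 1 was higher and 4 were lower (71.4% called, beside 28.1% of all tested genes). KRT8, KRT18, KRT19 and CDH1 were the lower ones. VIL1 was higher (log2 fold change 3.62, edgeR adjusted p = 0.00264) at no more than 1.84 CPM, and CDX2 did not pass (-0.14). The summed level of the 8 was 4388 to 5256 CPM in HCT116 and 2123 to 2310 CPM in DNMT3B KO. EPCAM was at 272 to 327 CPM in all 6 libraries, and CDX1 was at or near 0. The 6 fibroblast markers summed to 9.98 to 19.9 CPM in HCT116 and 15.3 to 17.9 CPM in DNMT3B KO, with LUM at 0 and DCN at or near 0. Of these 6, 2 were tested, and PDGFRB was higher (50% called, beside 28.1% of all tested genes). PDGFRB was at 0.226 to 0.440 CPM in HCT116 and 2.09 to 2.65 CPM in DNMT3B KO (log2 fold change 2.95, edgeR adjusted p = 0.000425). COL1A1 did not pass, at 9.64 to 19.3 CPM in HCT116 and 12.4 to 15.7 CPM in DNMT3B KO. The 5 immune and blood markers summed to 0.476 to 1.71 CPM in HCT116 and 1.58 to 2.20 CPM in DNMT3B KO. Of these 5, 2 were tested, and PTPRC was higher at no more than 0.335 CPM (50% called, beside 28.1% of all tested genes). The 4 endothelial markers, of which 2 were tested, had 0 calls in edgeR, in DESeq2 and at an unadjusted p under 0.05. They summed to 0.615 to 1.52 CPM and 1.48 to 1.94 CPM, and the 4 neural markers summed to 67.4 to 84.8 CPM and 64.8 to 76.3 CPM. Of these 4, all of which were tested, GFAP was higher at no more than 0.686 CPM (25% called, beside 28.1% of all tested genes). MBP did not pass, at 62.5 to 73.4 CPM in HCT116 and 52.3 to 64.5 CPM in DNMT3B KO. The part of these differences in the levels of the host genes was not tested.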

How the data were processed

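RNA-seq was analysed in 6 libraries, 3 of HCT116 and 3 of DNMT3B KO. The authors prepared stranded libraries from polyadenylated RNA, sequenced paired-end reads, aligned them to hg38 with STAR in the nf-core/rnaseq workflow and quantified Ensembl transcripts with Salmon. They deposited estimated counts per gene, scaled for transcript length. How reads shared by overlapping genes were divided rests on the model of Salmon. Gene positions and types were taken from GENCODE 44, which is newer than the annotation of the authors (60437 of 60666 identifiers and all 33 host genes matched), and small RNA membership and start sequences from RefSeq (GRCh38.p14).

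The estimated counts were rounded, and filterByExpr dropped genes with few counts. After TMM normalisation, edgeR 4.0.16 (R 4.3.3) compared the lines by its quasi-likelihood F test in 16959 genes, with genotype alone in the model. Benjamini-Hochberg adjustment covered all tested genes, and an adjusted p under 0.05 was called. Levels are CPM of the normalised libraries, standard errors are the log2 fold change divided by the root of F, and intervals are 95%. On simulated counts for the same comparison (16656 genes), 45.5% of 66 changes of 1.5-fold, 73.8% of 61 changes of 2-fold and 84.4% of 64 changes of 4-fold were found, beside 3 false calls. Far fewer genes were changed there than the 4761 called in the data. Simulated spread depended on the mean level alone and was the same in both lines. These shares and false calls therefore need not hold for the data.

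Members, gene lists and alternatives were chosen with earlier results of these data known, so counts over lists are descriptions without a test. Values per library are given for called members and for the 10 members of highest mean CPM. For other lists, called genes are named, up to 4 of smallest adjusted p, and ribosomal protein genes are only counted. Alternatives were RLE and upper-quartile normalisation, DESeq2 1.42.0, no filter on low counts, a mean of at least 1 CPM, an adjusted p under 0.01, each library left out, the replicate number as a block, and levels per kilobase. Depth limits what could be called in members under 1 CPM. An immune marker and a small RNA sequence are not reported here.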

Additional observations from a re-analysis of the deposited data

How the results depend on the processing

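The 5 called host genes had the same direction in every fit, and SNHG3 passed in each of them. The number of higher host genes, 2, was 0 to 4 when 1 library was left out, 1 with the replicate block and 0 at an adjusted p under 0.01. The number of lower host genes, 3, was 1 to 4 when 1 library was left out and 1 at an adjusted p under 0.01. Over all genes, 4761 calls became 3049 to 5924 when 1 library was left out and 2648 at an adjusted p under 0.01. Same-numbered libraries did not deviate together in every pair (correlations 0.06, -0.01 and 0.12 across genes), so the replicate numbers were not taken as pairs. With the replicate block the calls of SNHG4 and SNHG20 were lost (adjusted p = 0.0593 and 0.0516) and 4214 genes were called. Of 362 results of single host genes under alternatives, 316 kept direction and call, 21 lost the call, 11 gained one and 14 changed sign. Results at an adjusted p under 0.01 are the main fit read again. Only the 5 called host genes had a call to lose, and the 21 losses fell on SNHG4, SNHG16, SNHG19 and SNHG20. Sign changes occurred only in host genes that did not pass. With 1 library left out, the log2 fold change ranged from -0.19 to 0.055 for SNHG29 and from -0.27 to 0.10 for ZFAS1, with the highest value without HCT116 replicate 2. It ranged from -0.13 to 0.22 for EPB41L4A-AS1, from -0.17 to 0.010 for SNHG7, from -0.12 to 0.11 for SNHG10, -0.038 to 0.21 for SNHG30 and -0.12 to 1.49 for SNHG28. For RCC1 it ranged from -0.28 to 0.050. With upper-quartile normalisation, which moved the median of all genes to 0.08, it was 0.064 for EPB41L4A-AS1, 0.0008 for SNHG7 and 0.049 for SNHG10. For EPB41L4A-AS1 it was 0.0012 with a mean of at least 1 CPM and 0.017 with the replicate block. The cause of these changes was not tested. Counting error limits the host genes near 0 CPM, and 5 of them could not be tested.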
